A study of Dicentrarchus labrax with 35 samples.

Results

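The testes FS1, FS2 and FS4 of juvenile European sea bass (Dicentrarchus labrax) shared a gonadal expression profile that set them apart from the other fish of their age. They are 3 of the 35 gonads of the series and 3 of the 20 sampled at the second time point (T2). They were chosen because their values stood apart from those of the other 17 T2 testes, so every difference between the 3 and the 17 is given as a description, without a test. At 2-fold or more and with no overlap between the groups, 2178 of 24035 probes (9.06%) were higher in the 3 than in all 17 others and 2117 (8.81%) were lower. The profile lay almost entirely off the direction that separates undifferentiated gonads from testes: 0.159% of the squared deviation of the 3 ran along it. This share was not computed for other arrays, so a low share is not shown to be particular to the 3.

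Each array held the gonad of 1 fish, measured with a single dye (Cy3) on a custom sea bass array. At the first time point (T1, 133 days post fertilization) the samples were undifferentiated gonads of 7 initially fast-growing fish (F) and 8 initially slow-growing fish (S). At T2 (332 days post fertilization) they were testes of 5 fish each of FF (fast-growing, then fed in excess), FS (fast-growing, then on reduced food), SF (slow-growing, then fed in excess) and SS (slow-growing, then on reduced food). All fish came from eggs of a commercial hatchery, and no agent, transgene or allele was used in any of them. According to the study's methods only males entered at T2, and the fish of a T2 group shared a tank, so that a tank effect and a group effect cannot be told apart. The ages given are those of the sample labels. The study's text counts days from hatching and its ages differ from the labels, so the exact ages are uncertain. Arrays are numbered by the sample titles. The numbers in the names of the deposited data differ from the titles at T2, so the match with fish numbered elsewhere is not certain.

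As background, the gonad of the sea bass stays undifferentiated for months after hatching, and its sex is set by genetic and environmental factors together. A juvenile testis holds germ cells, the Sertoli cells that enclose them and the interstitial Leydig cells that make androgens, besides vessels, blood and connective tissue. Fish that grow fast before sex differentiation tend more often to become females. A whole gonad on an array mixes all of these cells, and in such bulk samples fewer cells of a type and less RNA per cell cannot be told apart. Neither the array data nor the RefSeq table of 30274 sea bass genes pairs a gene name with a probe (0 of the probe and target names matched), so the tissue label of the 3 could not be checked against markers of testis, ovary or other organs. For the same reason gene groups are replaced below by what the array gives for each probe: its level at T1, its change with age, its sequence of origin and its agreement with other probes.

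Technical measures of the 3 lay mostly within the range of the other T2 arrays, but each of the 3 lay outside it on some measure. The median foreground was 178 in FS1, 250 in FS2 and 392.5 in FS4, against 202 to 752 (median 377.5) in the other 17, and the median background was 16, 17 and 19 against 16 to 23. FS1 was therefore dimmer than any other T2 array. The share of spots well above background was 71.8% in FS1, 73.4% in FS2 and 76.4% in FS4, against 67.2 to 87.8% in the 17. The spike-in level relative to the 75th percentile of the array was 0.99, -0.51 and -0.79 log2 units, within the -1.45 to 1.87 of FF, SF, FS3 and FS5, whereas the 5 SS arrays had 3.29 to 5.60. Spots flagged by the scanner software numbered 213 in FS1, 180 in FS2 and 114 in FS4, against 15 to 133 in the 17 (133 in FS3). Flagged spots were left out. The share of signal in the 100 brightest probes was 29.7% in FS1, 19.3% in FS2 and 16.7% in FS4. It was 17.5 to 36.3% in the 17, so FS4 lay below their range. The 3 lay on the same slide and were scanned on the same day as FS3, which did not have the profile, while FS5 lay on another slide. What part the dimmer signal, the flagged spots and the share of signal in bright probes had in the profile was not tested beyond the settings given here.

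The 3 profiles resembled each other closely. When each was taken as the difference from another group (FF, SF or SS, so that no reference array was shared), the mean correlation across 24035 probes was 0.90 for FS1 with FS2, 0.90 for FS1 with FS4 and 0.91 for FS2 with FS4. The mean over these pairs and the 6 ways to assign the references was 0.902, with 0.858 the lowest and 0.934 the highest single value. The same measure was 0.070 for FS3 with FS5, and between -0.230 and 0.011 for any of the 3 with FS3 or FS5. Among 61 other pairs of T2 arrays that left at least 2 groups as references it ran from -0.506 to 0.591. The 3 were chosen by these same values, so their higher agreement than that of the other pairs follows in part from the choice. Points of such a correlation share the arrays, the probe design and, for probes of one target, the sequence, so it is given without a p-value.

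**Figure D1:**
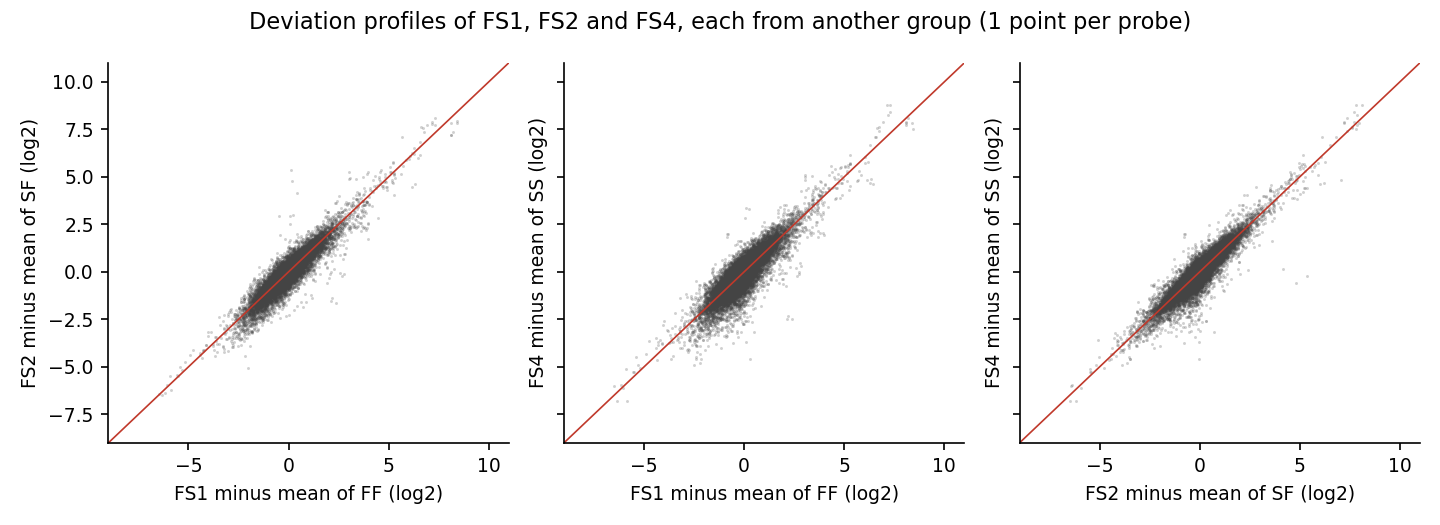
Each point is 1 of 24035 probes; the axes give the log2 difference of FS1 from the mean of FF, of FS2 from the mean of SF and of FS4 from the mean of SS, and the line marks equal values. The points follow the line in all panels (r = 0.920 for FS1 with FS2, 0.870 for FS1 with FS4 and 0.923 for FS2 with FS4), with differences reaching beyond 5 log2 units in both directions.

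The size of the profile was also alike. Over the probes higher in the 3, the median difference from the other T2 arrays was 1.43 log2 units in FS1, 1.55 in FS2 and 1.54 in FS4, against 0.01 in FS3 and -0.05 in FS5. Over the probes lower in the 3, it was -1.36 in FS1, -1.52 in FS2 and -1.55 in FS4, against 0.10 in FS3 and 0.06 in FS5. FS1 thus had the smallest deviation of the 3 in both directions. The values of FS3 and FS5 follow in part from the choice of these probes, which asked that both lie apart from the 3. The spread among the 3 was small: the median SD over all probes was 0.15 log2 units among the 3 and 0.23 within FF, SF and SS. This comparison is not between like sets. The 3 were picked from their group by these values and lay on the same slide. FF, SF and SS were taken whole, and each lay on more than 1 slide.

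Repeated measurements of a sequence gave similar differences. The mean difference between the 3 and the 17 correlated at 0.98 between the spots of 17671 probes spotted at 2 positions of the array, and at 0.94 between the first and the last probe of 6266 targets with at least 2 probes. Of these targets, 823 had a probe that was higher in the 3, and in 529 every probe was higher. Likewise 619 had a lower probe, and in 318 every probe was lower. Only 2 targets had probes on both lists. Other fold limits gave 3432 probes higher and 3430 lower at 1.5-fold, and 522 higher and 449 lower at 4-fold.

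Against FS3 alone, the remaining array of their slide, the 3 were 2-fold or more higher at 2450 of 24035 probes and lower at 2849. These included 1953 of the 2178 probes higher and 1891 of the 2117 lower than all 17. FS3 is among the 17, so all listed probes lay apart from it by their choice, and only the 2-fold limit could fail. The overlap of the lists therefore follows largely from the choice. When the background-subtracted signal of the scanner software was used, with the 75th percentile of every array set equal, a scaling that does not equalize the distributions of the arrays, 3462 probes were higher and 4993 lower, so that 40.9% of the differing probes were higher in place of 50.7%. Under that setting the median of all probes was 0.40 log2 units lower in the 3 than in the 17, against 0.04 lower after quantile normalization. The balance of higher and lower probes thus differed between these settings, in which the background correction and the scaling changed together.

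The second question was where the 3 lie between the undifferentiated gonad and the testis. An axis was drawn from the mean of F and S (position 0) to the mean of FF and SS (position 1), and each array that defines it was placed with itself left out. FS1 lay at 0.922, FS2 at 0.943 and FS4 at 0.944 (0.936 ± 0.013, SD, n = 3). The 17 other T2 testes lay between 0.861 and 1.11 (median 0.977), FS3 at 1.01 and FS5 at 0.861, and the 15 T1 gonads between -0.052 and 0.108. The 3 were thus placed among the other testes and far from the T1 gonads. With T1 and T2 normalized separately they lay at 0.918 to 0.925, just below the 0.930 to 1.04 of the 17, and with the processed signal at 0.961 to 1.07, within the 0.854 to 1.18 of the 17.

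Away from the axis the 3 lay farther out than any other array. Their distance from it, as root mean square over the probes, was 0.879 log2 units in FS1, 0.970 in FS2 and 0.979 in FS4. It was 0.286 to 0.542 in the 17 (0.286 in FS3 and 0.326 in FS5) and 0.385 to 0.732 at T1. No other array of the series overlapped with the 3 on this measure, under any of the 7 other settings of background correction, normalization and filter in which it was computed. The 3 were chosen because their values stood apart from the 17, so their greater distance than the 17 follows in part from the choice. The other settings use the same arrays and are no separate evidence. For scale, the axis itself had a root mean square of 0.847 log2 units and the deviation of the mean of the 3 from SF, FS3 and FS5 one of 0.921, so that the profile was about as large as the difference between the ages.

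**Figure D2:**
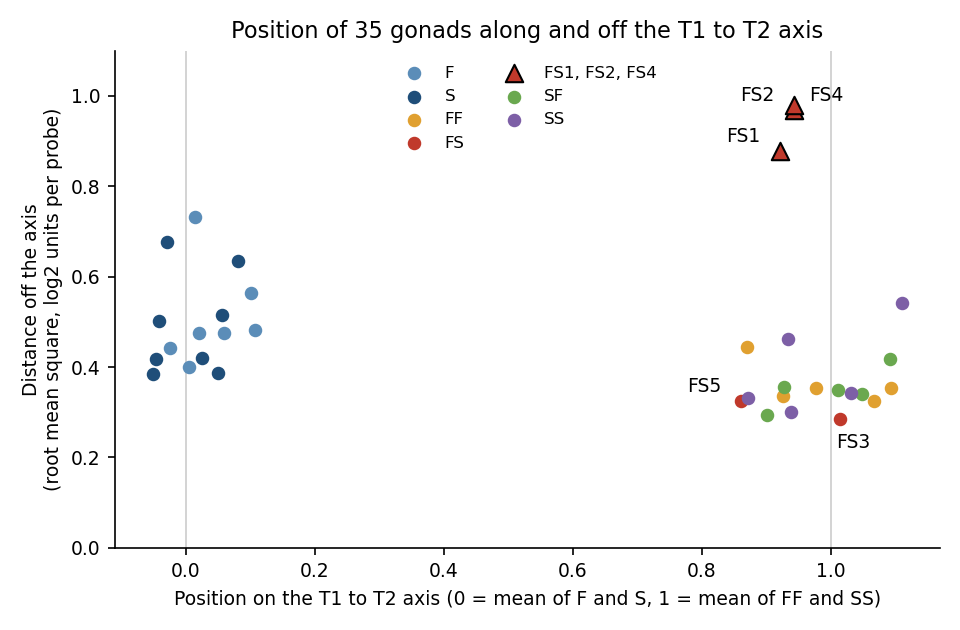
Each point is 1 of 35 gonads; the horizontal axis gives its position between the mean of F and S (0) and the mean of FF and SS (1), and the vertical axis its distance off that line in log2 units per probe. FS1, FS2 and FS4 (triangles, 0.879 to 0.979 off the axis) lie above all other arrays at a position among the T2 testes.

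The deviation of the 3 from SF, FS3 and FS5, none of which define the axis, correlated at -0.04 with the axis across 24035 probes. The share of its square along the axis was 0.311% for FS1, 0.102% for FS2 and 0.098% for FS4. Over the settings tried, the share for the mean of the 3 stayed between 0.005 and 0.711%. No other array was given such a share, so these values have no comparison.

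Probes that changed with age were still among those that differed. Age classes came from the 25 arrays of F, S, FF and SS alone, by limma (1.5-fold or more in either direction, Benjamini-Hochberg adjusted p under 0.01), which called 3994 of 24200 probes (16.5%) as rising from T1 to T2 and 3173 (13.1%) as falling. Age nearly coincided with the day of scanning, since 11 of the 15 T1 arrays were scanned on the second day and 9 of these 10 T2 arrays on the first. With scan day in the fit 3975 probes rose and 2577 fell. Only males entered at T2, whereas the T1 gonads were undifferentiated and could include future females. Age and the mix of sexes therefore cannot be told apart in these classes. The split of the age calls rests on all arrays being normalized together: with T1 and T2 normalized separately 12951 rose and 842 fell, since the age difference of the median probe then was 0.66 log2 units in place of 0.01. Of all 24035 probes, 2248 (9.35%) were 2-fold or more higher in the 3 than in SF, FS3 and FS5, and 2571 (10.7%) were lower. Among the 3958 of them that rose with age, 548 (13.8%) were higher in the 3 and 894 (22.6%) lower. Among the 3143 that fell with age, 267 (8.495%) were higher and 479 (15.2%) lower. Among the 16934 that did neither, 1433 (8.46%) were higher and 1198 (7.07%) lower.

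Probes that rose with age were therefore above the share of all probes in both directions, and probes that fell with age in the lower direction alone. The median deviation was -0.21 log2 units for the probes that rose, -0.23 for those that fell and 0.02 for the rest. Probes that changed with age were also brighter (median level in the 17 of 10.13 for those that rose, 8.69 for those that fell and 8.12 for the rest). Among the 9219 probes well above background on all 35 arrays, 28.9% of those that rose, 22.6% of those that fell and 19.8% of the rest were lower in the 3, against 22.4% of all, and 12.1%, 9.96% and 11.95% were higher, against 11.6%. Within these bright probes the classes thus differed less.

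**Figure D3:**
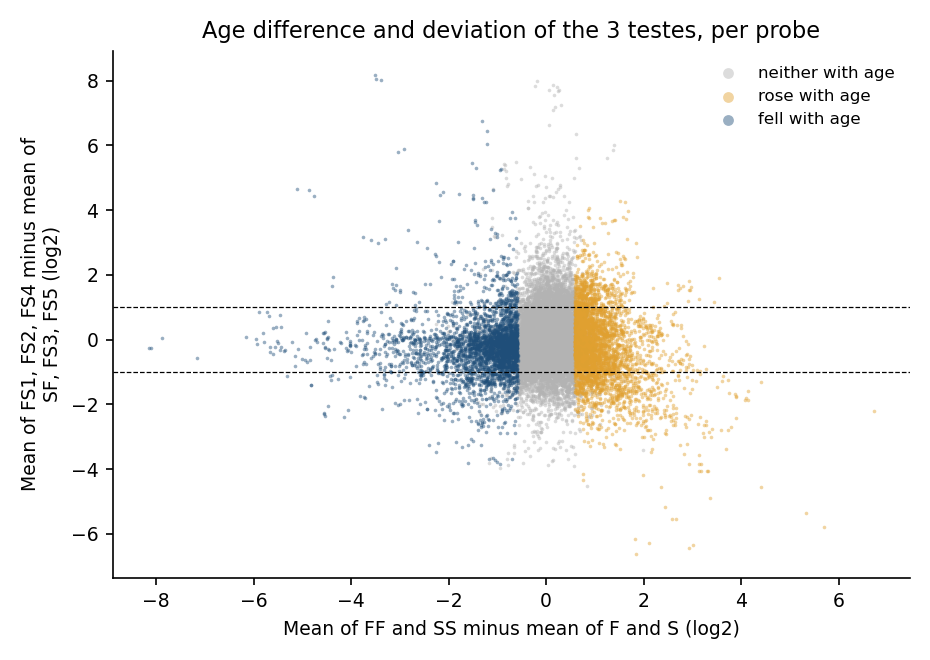
Each point is 1 of 24035 probes; the horizontal axis gives the mean of FF and SS minus the mean of F and S, and the vertical axis the mean of FS1, FS2 and FS4 minus the mean of SF, FS3 and FS5 (both log2). Probes that rose, fell or did neither with age spread above and below the dashed 2-fold lines, with no slope between the axes (r = -0.04).

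Movement back towards T1 and movement beyond T2 were both present. Of the 894 probes that rose with age and were lower in the 3, 583 (65.2%) were at or below the T1 mean and 311 lay between the ages. Their median levels were 9.71 at T1, 11.17 in SF, FS3 and FS5 and 9.43 in the 3. Of the 267 that fell with age and were higher in the 3, 211 (79.0%) were at or above the T1 mean, with medians of 10.37 at T1, 9.21 in the 7 reference testes and 11.14 in the 3. Both shares follow in part from the limits used. A probe that changed between 1.5-fold and 2-fold with age and differed 2-fold in the 3 comes near the T1 mean or passes it. The median age change was 1.28 log2 units in the 894 probes and -1.01 in the 267. The opposite cells held 548 probes that rose with age and were higher still in the 3 (medians 8.80, 9.86 and 11.42 in the same order) and 479 that fell with age and were lower still (11.79, 10.46 and 8.97). Compared with the returns towards T1 (894 and 267), the continuations beyond T2 (548 and 479) were similar in number, 1161 against 1027 probes. Both age classes held more lower than higher probes, however, which counts as return in the rising class and as continuation in the falling class. With the processed signal the returns were 1898 and 709 and the continuations 1377 and 1878, so the order of the pooled counts depends on the setting.

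For most probes of the profile the 3 lay outside the range of all other gonads, T1 included. Among the 2178 higher probes, all 3 exceeded all 15 T1 gonads at 1837 (84.3%). Among the 2117 lower probes, all 3 were below all T1 gonads at 1290 (60.9%). Over all probes these shares were 20.8% above and 17.2% below. The median level of the higher probes was 8.82 at T1, 9.05 in the 17 and 10.82 in the 3, and that of the lower probes 10.58, 10.87 and 9.20. The mean of the 3 lay within the T1 range at 11.8% of the higher and 28.8% of the lower probes, against 52.7% of all probes. The probes of both lists were chosen because the 3 lay beyond all 17, and their median T1 levels were near those of the 17. Lying beyond T1 thus follows in part from the choice, and the shares of all probes, which were not so chosen, are no like comparison.

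The largest differences far exceeded 2-fold. At 82 higher probes (34 targets) and 20 lower probes (9 targets) the difference was at least 16-fold, and its highest value was 8.16 log2 units up and 6.60 down. Of the 82, 27 (12 targets) had fallen with age, 4 (2 targets) had risen and 19 (7 targets) carried the code cDN23 in the target name. Such codes are taken here as cDNA libraries by their form. Of the 20, 19 (8 targets) had risen with age and none had fallen. Over all probes 13.1% had fallen, 16.5% had risen and 4.55% belonged to cDN23, and probes of 1 target are not separate sequences. A probe has to be bright in the 17 to be 16-fold lower in the 3. In the brightest of 5 equal classes by level in the 17, 39.3% of probes had risen with age, and in the dimmest none. For the 20 lower probes the share of all probes is therefore no like comparison. The 82 higher probes were not compared with probes of like level either, so whether their age classes differ beyond level was not tested. Of the higher probes, 15 were called well above background in none of the 17 other testes, and of the lower probes 48 in none of the 3, so that their fold changes have only a bound.

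A set of 4 probes, chosen by size of difference within each combination of direction and age class among probes well above background on all T2 arrays, shows what these values look like on single arrays. The choice also asked that the target have at least 2 probes, all without overlap in the same direction. That the other probes of each target differ in the same direction therefore follows from the choice. CUST_18906_PI416070213, which belongs to a clone of library cDN32, had a log2 level of 17.46 in FS1, 17.51 in FS2 and 17.42 in FS4. In the 17 others its lowest level was 7.83 (FS5), its median 9.13 and its highest 12.51 (SF3), and at T1 it ran from 9.94 to 16.15. The 3 did not overlap with any other gonad, the nearest being F3 at T1 (16.15). The mean difference of 8.16 log2 units corresponds to 285-fold, and the other 2 probes of its target differed by 8.00 and 8.02. Its change with age was -3.51 log2 units (SE 0.70, limma adjusted p = 0.00015), so that in the 3 it was above both ages.

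CUST_9904_PI416070213, from library cDN23, had a log2 level of 15.77 in FS1, 15.82 in FS2 and 15.91 in FS4, against 10.36 to 12.62 (median 11.50) in the 17. This is a difference of 4.31 log2 units or 19.8-fold, without overlap, and the other probes of the target differed by 4.01 and 4.30. Its change with age was 1.52 log2 units upwards (SE 0.38, limma adjusted p = 0.0017). At T1 it lay between 9.10 and 9.97 except in F3 (13.51) and S3 (11.91).

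CUST_6601_PI416070213, against a contig of assembled sequences, was at 8.65 in FS1, 8.22 in FS2 and 7.99 in FS4, whereas the 17 lay between 13.87 and 15.62 (median 15.02) and the T1 gonads between 12.19 and 13.63. It was 97.0-fold higher in the 17 than in the 3 (-6.60 log2 units), and the other probes of the target differed by -6.34 and -6.13. The probe had risen by 1.85 log2 units with age (SE 0.16, limma adjusted p = 6.07e-10). The 3 were thus far below the undifferentiated gonads too, not at their level.

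CUST_2467_PI416070213, against another contig, was at 12.78 in FS1, 11.81 in FS2 and 11.61 in FS4, whereas the 17 lay between 14.79 and 16.86 (median 15.68) and T1 between 15.54 and 17.56. The 17 were 12.9-fold higher than the 3 (-3.69 log2 units), with -3.62 and -3.59 at the other probes of the target. Its change with age was -1.001 log2 units (SE 0.25, limma adjusted p = 0.0018), in the direction in which the 3 went further.

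**Figure D4:**
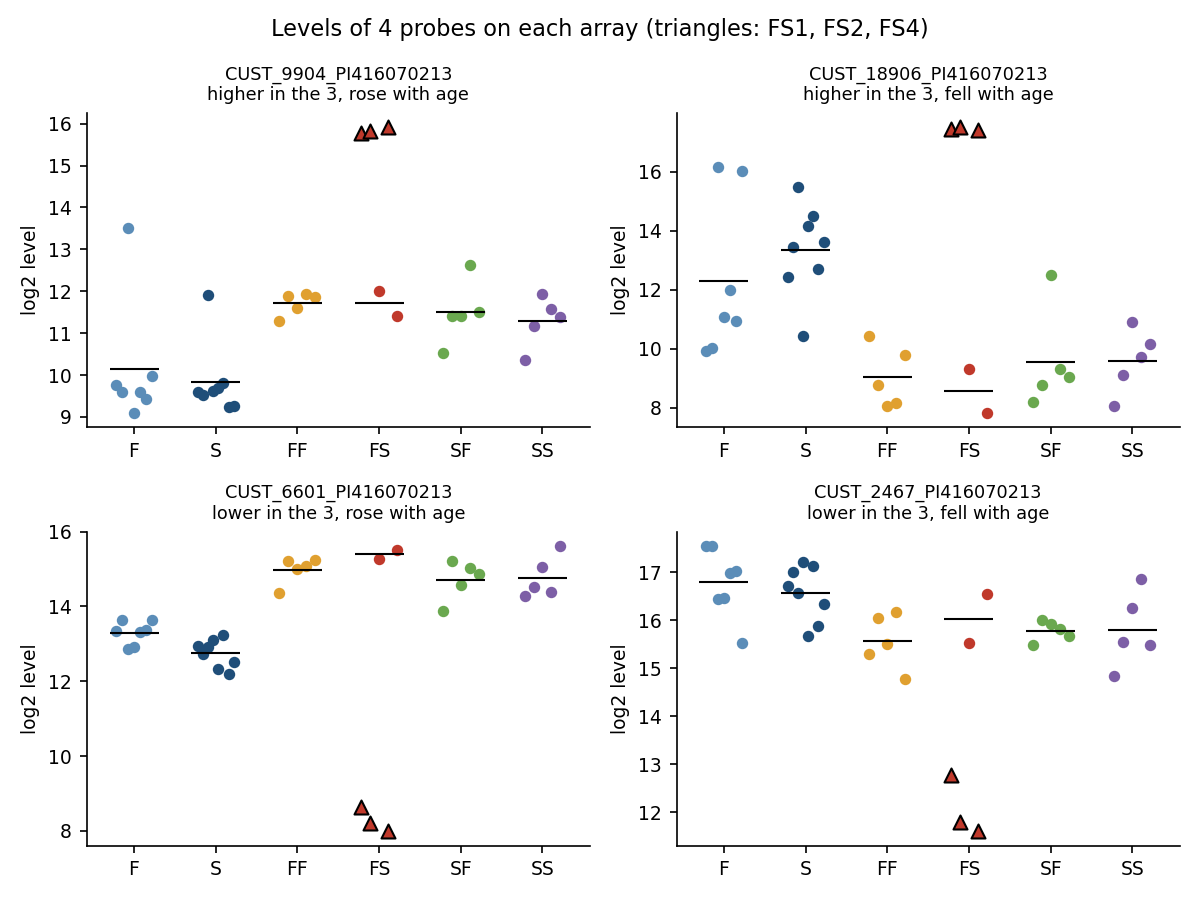
Each panel gives the log2 level (vertical axis) of 1 probe on each of 35 arrays by group (horizontal axis); triangles are FS1, FS2 and FS4, and black lines the group means without these 3. In the upper panels the 3 lie above all other gonads (15.77 to 15.91 and 17.42 to 17.51) and in the lower panels under all other gonads (7.99 to 8.65 and 11.61 to 12.78).

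The share of probes that differed varied with the level and with the source of the target sequence, both of which were examined after the values had been seen. With the probes split into 5 equal classes by their level in the 17, 2.10% of the dimmest class were higher in the 3 and none (0 of 4807) lower. In the brightest class, 11.2% were higher and 28.7% lower. The median difference was 0.04 log2 units in the dimmest class and -0.50 in the brightest. A probe near background has little room to be lower, so these shares do not compare like with like across levels.

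Target names hold 14 codes (cDN22 to cDN35), taken here as cDNA libraries by the form of the clone names, and a set of contigs. What each code stands for, and what tissue it came from, is not given in the sources used here. In library cDN23, 245 of 1093 probes (22.4%) were higher in the 3 and 14 (1.28%) lower, against 9.06% and 8.81% of all probes. In the contigs and the other 13 libraries, 3.81 to 13.9% were higher and 4.60 to 11.9% lower. The median difference over the cDN23 probes was 0.37 log2 units, whereas it was between -0.10 and 0.02 in the other sources. By array, the cDN23 median was 0.30 in FS1, 0.41 in FS2 and 0.42 in FS4, and between -0.07 and 0.05 in the 17. These medians of the 3 did not overlap with those of the 17. They include the 259 probes of the library that are on the lists, which were chosen for not overlapping. Medians by array are given for this library alone, the source with the highest share of higher probes, so the lack of overlap is not shown to be particular to it. In each of the 5 level classes except the brightest, the share higher was above that of the other sources by more than 10 percentage points (17.2 against 1.33%, 21.95 against 6.90%, 22.7 against 10.7% and 32.8 against 11.9%), and in the brightest it was 16.1 against 11.1%. Of the cDN23 probes, 22.7% had risen with age and 2.84% had fallen, against 16.5 and 13.1% of all. This was not particular to cDN23. In cDN24, 26.5% had risen and 5.40% had fallen, while 7.54% of its probes were higher in the 3 and 8.21% lower.

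**Figure D5:**
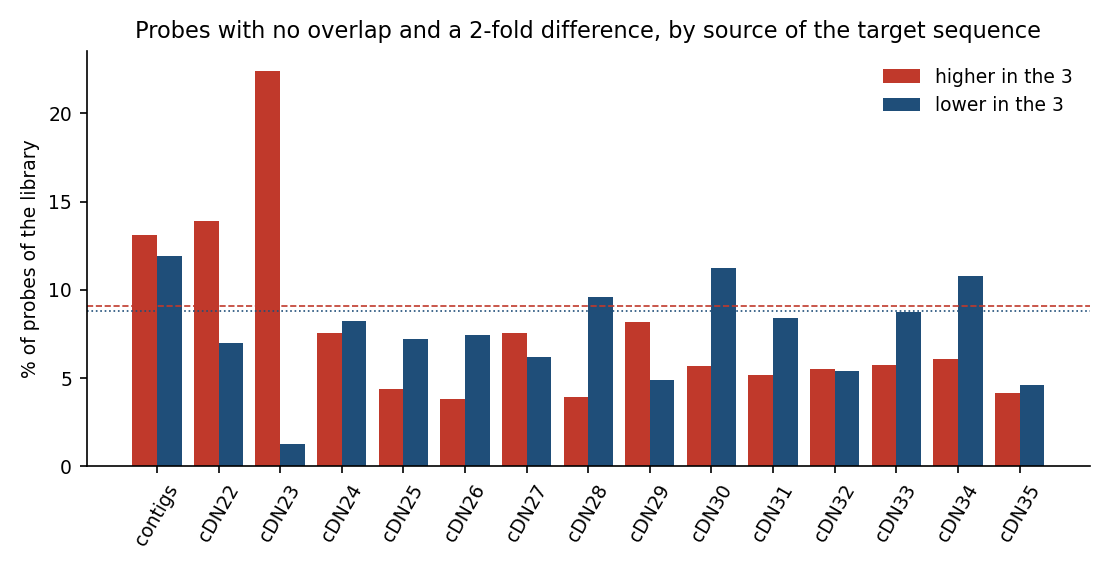
Bars give the percentage of probes of each source of target sequences (horizontal axis) that were at least 2-fold higher (red) or lower (blue) in FS1, FS2 and FS4 than in all 17 other testes; the dashed and the dotted line mark the shares of all probes (9.06 and 8.81%). Library cDN23 has the highest red bar (22.4%) and the lowest blue bar (1.28%).

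The probes also belong to separate design sets. In the set of 5168 probes with a single spot each, which shares no target with the main set and holds none of libraries cDN22 to cDN24, 2.69% were higher in the 3 and 14.2% lower, with a median difference of -0.22 log2 units. In the main set of 18813 probes 10.8% were higher and 7.32% lower, with a median of 0.01. In the brightest class these shares were 3.02% higher and 49.0% lower in the single-spot set and 13.2 and 23.8% in the main set. Design set, number of spots and library overlap, and they cannot be told apart here.

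The profile was next compared with SS minus SF, the difference between reduced and excess food in the fish that started slow. SS and SF also differed in tank, in part in slide, and in spike-in level (3.29 to 5.60 in SS, -0.90 to 0.40 in SF). Food cannot be told apart from these, so the correlations below describe the contrast of the groups and not a response to food alone. The deviation of the 3 from FF correlated at -0.02 with SS minus SF across the 24035 probes (no array is shared), with 0.03 for FS1, -0.07 for FS2 and -0.02 for FS4. For FS3 the same value was 0.13 and for FS5 0.09. All of these are close to 0, and leaving out single arrays moved the value of the 3 between -0.088 and 0.035. The difference between F and S at T1, that is, between fast and slow fish before the food was changed, had a correlation of -0.03 with the profile, and of -0.11 when F3 was left out.

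The profile was also looked for in the 15 undifferentiated gonads. Each T1 array was set against the other arrays of its group, which are independent of the T2 arrays that chose the 3. F7, the T1 gonad with the widest deviation, had a correlation of 0.09 with the profile across probes (0.142 without F3 among its references). All 15 were then looked at, and the deviation of F3 had 0.42, whereas the other 14 had -0.21 to 0.12. Of the 608 probes that were 2-fold or more higher in F3 than in the other F gonads, 292 (48.0%) were among the 2178 higher in the 3, which is 13.4% of the latter. In S3 it was 130 of 455 (28.6%), or 5.97% of the 2178. In the other 13 T1 gonads 0.545 to 11.03% of the higher probes were on that list, and the share of all probes on it is 9.06%. For the lower probes the order was another. Of the 1107 probes lower in F7, 296 (26.7%) were among the 2117 lower in the 3, and the shares were 25.03% in S5 (218 of 871) and 21.2% in S6 (97 of 457), against 13.5% in F3 (49 of 363), 7.29% in S3 (21 of 288) and 8.81% of all probes. Dim probes have little room to be lower on any array, so the share of all probes is no like comparison here. Among the 9219 probes well above background on all 35 arrays, 18.8% were lower in the 3 than in all 17. Whether F7, S5 and S6 share lower probes beyond this effect of level was not tested.

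The overlap was concentrated in the probes of largest difference. The 82 probes at least 16-fold higher in the 3 belong to 34 targets. In F3, 76 of the 82 were 2-fold or more higher than in the other F gonads (median 2.72 log2 units). In S3, 59 were 2-fold or more higher than in the other S gonads (median 1.48). Over all 24035 probes, 608 were 2-fold or more higher in F3 and 455 in S3. Probes of 1 target are not separate sequences, and the counts in F3 and S3 were not made by target. In each of the other 13 T1 gonads at most 10 of the 82 were 2-fold or more higher, with medians between -0.61 and -0.22. F3 and S3 were among the references of these 13, and without them at most 11 probes were higher, with medians between -0.13 and 0.07. Of the 20 probes (9 targets) at least 16-fold lower in the 3, 8 were 2-fold lower in F3 (median -0.71) and none in S3 (median 0.25). Over all 24035 probes, 363 were 2-fold or more lower in F3 and 288 in S3. In each of the other 13 T1 gonads at most 4 of the 20 were 2-fold lower, with medians between -0.45 and 0.80. On the axis F3 lay at 0.060 and S3 at -0.052, among the T1 gonads, and neither shared a slide or a scan day with the 3. The limit of 16-fold and the choice of F3 and S3 followed from looking at the values, and these figures carry no test.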

How the data were processed

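The authors deposited the scanner output of 35 arrays (1 per fish, Agilent Feature Extraction), with intensity values of spots and local background on a linear scale, flags (other values) per spot, and a matrix of processed log2 values, made per the study's methods by normexp correction, quantile normalization and limma. Values were recomputed from the scanner output: median intensities were corrected by normexp (offset 50, limma 3.58.1 in R 4.3.3), control spots and 2763 flagged spots were left out, log2 values were quantile normalized over all arrays, and the median of the spots of a probe was taken. Of the values in the deposited matrix, 98.3% were within 0.1 of these. A first version that equalized the arrays before log2 matched the matrix poorly and was replaced before any groups were compared. Of 24200 sea bass probes (11705 targets), 24035 had a value on every array and 165 did not. No spot was saturated. The number of arrays and their brightness over background limit the precision. No arrays held identical values (highest correlation 0.989).

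The 3 testes and the lists were chosen with earlier results of these data known. Values of the 3 against the 17 carry no test. A probe was higher when the lowest of the 3 exceeded the highest of the 17 and the means differed by 2-fold. Age was tested by lmFit and eBayes on 25 arrays, without covariates, with thresholds as in the study. As no probe has a gene name, 4 probe identifiers were named: among probes well above background on all T2 arrays whose target has at least 2 probes, all without overlap, the largest difference for each direction and age class. The array files hold no probe sequences, so none are shown. On simulated data the age test recovered 95% of 200 probes changed 3-fold, with 0 false calls among 24091 probes. The simulated noise was independent between arrays, without effects of slide, tank or scan day, so it cannot show how many age calls come from these. Plots used matplotlib 3.10.9.

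Alternatives changed the background correction, normalization, probe filter, unit, fold limit, reference arrays, axis and age fit, or left out each array. Leaving out SS, using SF alone as reference and repeating the F3 and cDN23 values, or the T1 values without F3 and S3 as references, were chosen after seeing the data. Nothing shows that fish of a group came from separate tanks, so p-values measure the spread between fish of a tank.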

Additional observations from a re-analysis of the deposited data

Results flagged for a closer look

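In each group of 5 to 8 arrays, the highest and the lowest value were compared with the rest by Dixon's criterion, for 14 measures and 84 tests of a group in all. Chance flags about 1 test in 20, and 9 values stood out. Among the F gonads, F3 had a median of 0.34 log2 units over the probes higher in FS1, FS2 and FS4 (next highest -0.03) and a level of 13.51 at CUST_9904_PI416070213 (next 9.97). Among the S gonads, S3 had 11.91 at the same probe (next 9.81). In both gonads most of the 82 probes (34 targets) at least 16-fold higher in FS1, FS2 and FS4 were higher than in the rest of their group. F7 had the widest deviation from its group, with an SD over probes of 0.79 (next 0.51).

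At T2, none of the values that stood out belonged to FS1, FS2 or FS4, since 3 like values among 5 leave no gap for this criterion. SF3 had a level of 12.51 at CUST_18906_PI416070213 (next 9.32), and FF1 a level of 14.37 at CUST_6601_PI416070213 (next 14.99). FF4 lay 0.44 log2 units off the axis (next 0.35). Over the probes lower in the 3, SF1 had a median of -0.23 (next -0.01) and SS1 one of -0.32 (next -0.08), both small beside the -1.36 to -1.55 of the 3.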

How the results depend on the processing

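The agreement of FS1, FS2 and FS4, their place among the T2 testes and their distance off the axis were found under every background correction and normalization tried, except that with T1 and T2 normalized separately the 3 lay just below the other testes. Of 177 comparisons of a value with its value under another setting, 122 stayed within 1.5 times (counts) or 1 SD (other values), and 428 of 436 did when single arrays were left out. Both counts include values fixed by construction. The mean of spots differs from the median only at 54 probes with over 2 spots, and again gave 2178 higher and 2117 lower. Leaving out an SF array, FS3 or FS5, which do not define the axis, kept the position at 0.936. Without FS3 or FS5 the agreement also stayed at 0.902. For position and share the SD was that among FS1, FS2 and FS4, and for the agreement that among its single values. The cause of the other shifts was not tested unless stated.

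With the processed signal at the 75th percentile, 3462 probes were higher and 4993 lower, the agreement was 0.841, the position 1.03, the share along the axis 0.00523%, and the correlation with F7 0.048. Age calls were 6039 up and 5918 down. In the 3, 1377 of the rising probes were higher and 1898 lower, 709 of the falling probes were higher and 1878 lower, and 3976 of the rest were lower. With T1 and T2 normalized separately the position was 0.922 and the share 0.711%, and age calls were 12951 up and 842 down. Of these 1761 and 78 were higher and 1984 and 142 lower in the 3, as were 641 and 700 of the rest.

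With 1 value per target, which lowers counts by construction, 837 were higher and 1202 lower, the position was 0.922, the correlation with F7 0.121, and age calls were 1776 up and 1594 down. Of the rising targets 197 were higher and 481 lower, of the falling 104 and 254, of the rest 555 and 693. With bright probes only, which also tests fewer, age calls were 2127 up and 2104 down, 253 rising and 620 other probes were higher, and the correlation with F7 was 0.138.

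At 1.5-fold the counts were 3432 and 3430, and at 4-fold 522 and 449. The offset of 0 gave an agreement of 0.876, the deposited matrix a position of 0.952, and leaving out SS, which was chosen after seeing the data, one of 0.912. On the axis from S to SF the share was 0.013% and 166 falling probes were higher, and on that from F to FF 158. Against SF alone, also added later, the share was 0.311%. Share and sign of such small values are therefore not settled beyond being near 0.

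Leaving out single arrays moved the higher probes between 2151 and 2391, the lower between 2096 and 2461, the agreement between 0.895 and 0.913, the position between 0.926 and 0.956 (highest without F3) and the share between 0.045 and 0.342% (highest without FS5, and 0.286% without SS1). Age calls ran from 3882 to 4059 up and 2987 to 3263 down. Rising probes were higher at 505 to 586 and lower at 866 to 923, falling probes at 246 to 274 and 433 to 543, the rest at 1409 to 1554 and 1167 to 1287. The correlation with SS minus SF ran from -0.088 (without SS1) to 0.035 (without SS5), and that with F7 from 0.076 to 0.142 (without F6 and F3).

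The replicate block gave 3891 age calls up and 3229 down. Same-numbered arrays did not deviate together (median r of 0.03 over 32 pairs, lowest -0.21, against -0.02 over 199 others), so the numbers do not pair the samples. Slide as a random block gave 3827 and 2746, scan day 3975 and 2577, and the fit of all groups 3920 and 3227. The correlation with F3 was 0.33 to 0.47 over the settings, and the share of cDN23 probes higher in the 3 was 22.4 to 32.7%, against 9.06 to 14.4% of all. In the dim FS1 and at T1, brightness over background limits what could be measured.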
